A study of Mus musculus with 192 samples.

Results

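Stat2, Stat3 and Stat5a encode transcription factors of the JAK-STAT pathway, Jak2 encodes a kinase that activates such factors, and Socs1, Socs3 and Cish encode inhibitors that act on the same receptors. Transcripts of these 7 genes were followed in mouse bone marrow-derived dendritic cells exposed to 7 pattern recognition receptor ligands alone, in pairs and in triplets. The genes were taken by name from a table of 23481 gene rows. The rule uses no measured value, but the genes were chosen with earlier results of these data known. All 7 passed a filter on low counts that left 4720 genes for testing. The filter asks for counts in enough libraries to fill 1 group, so a gene that is scarce in most groups can pass it through the groups in which it is high.

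Cytokines that bind their receptors on a dendritic cell activate Janus kinases held on the inner side of the membrane. The kinases phosphorylate STAT proteins, which pair up, enter the nucleus and switch on target genes. STAT2 acts with IRF9 in the factor that answers type I interferon, STAT3 answers IL-6 and IL-10, and STAT5 answers GM-CSF, whose receptor signals through JAK2. SOCS1, SOCS3 and CIS, the product of Cish, are made in response to cytokines and in turn restrain the kinases or their receptors, which closes a feedback loop.

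Libraries came from 64 groups of 3 each. Bone marrow of female C57BL/6J mice aged 6 to 8 weeks was grown with 15 ng/ml GM-CSF, the untreated cells included, and 100000 cells per well were then exposed for 6 hours. The groups were an unstimulated control called Ctrl, 7 single ligands, 21 pairs and 35 triplets. The ligands are called here as the labels call them: PAM, LPS (the bacterial lipopolysaccharide), HMW, Zymosan (a yeast cell wall preparation, entered as depleted zymosan), SeV, cGAMP (a cyclic dinucleotide, entered as 3',3'-cGAMP) and CpGB. Group names join the ligands that were given together, as in PAM_LPS. The labels do not say whether the 3 libraries of a group came from separate cultures or animals, so p-values measure the spread between these libraries, which may be technical.

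The genes lie on 5 chromosomes of the mouse build GRCm38 in the GENCODE M21 annotation: Stat2 at chr10:128270559-128292849 on the plus strand, Jak2 at chr19:29251828-29313080 on the plus strand, Socs1 at chr16:10782240-10785536 on the minus strand, Socs3 at chr11:117966079-117970047 on the minus strand and Cish at chr9:107296026-107302784 on the plus strand. Stat3 (chr11:100885098-100939540, minus strand) and Stat5a (chr11:100859351-100885169, plus strand) meet tail to tail and share 72 bases. Whether the counting used the strand is not given in the sources used here, so reads from those 72 bases cannot be told apart. Cish overlaps the antisense genes Gm17040 and Gm17041 by up to 1459 bases, and Stat5a has a near-identical copy in Stat5b, so their counts carry the same uncertainty.

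Promoter windows of 300 bases, from 250 before to 50 after the RefSeq start in GRCm38.p6, were searched on both strands for a pair of motifs through which STAT factors are known to bind DNA. All 7 genes had a window. The STAT dimer motif TTCNNNGAA, which is its own reverse complement, occurred in the windows of Cish and Socs3 and in 8.3% of all 32851 windows. The core of the interferon-stimulated response element, GAAANNGAAA or TTTCNNTTTC on the other strand, occurred in the windows of Socs1 and Stat2 and in 3.44% of all windows. The stretches of 60 bases that hold the matches are printed 5′ to 3′ along each gene's own strand, and the motifs stand in capitals. A match describes the letters and is no evidence of binding here.
Cish: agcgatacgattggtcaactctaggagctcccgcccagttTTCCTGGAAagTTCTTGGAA
Socs3: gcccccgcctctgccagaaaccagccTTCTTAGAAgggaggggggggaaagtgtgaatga
Socs1: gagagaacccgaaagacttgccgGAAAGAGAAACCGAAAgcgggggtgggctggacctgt
Stat2: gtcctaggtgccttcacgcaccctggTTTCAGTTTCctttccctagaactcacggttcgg
The Cish stretch (chr9:107296619-107296678, plus strand) holds a pair of dimer motifs that begin 1 and 12 bases after the start. The Socs3 stretch (chr11:117969487-117969546, minus strand) holds 1, which begins 154 bases before the start. The Socs1 stretch (chr16:10785583-10785642, minus strand) holds a pair of response element cores that begin 83 and 77 bases before the start and overlap by 4 bases. The Stat2 stretch (chr10:128270250-128270309, plus strand) holds 1 core, in reverse, 222 bases before the start. No match was found in the windows of Stat3, Stat5a and Jak2, which says only that these letters are not in these windows.

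Library totals ran from 46564 to 610234 counts with a median of 171616, and those of the 3 Ctrl libraries from 61823 to 89530. Each library's log2 levels correlated with the mean of the others of its group with an r of 0.850 to 0.963, and none of the pairs of replicates within a group agreed within sampling noise. Of the 10 dendritic cell markers, all were counted, and their summed level ran from 6631 counts-per-million (CPM) in HMW_cGAMP to 9999 in PAM_LPS_SeV, with 6636 in Ctrl. Flt3 and Zbtb46, which mark conventional dendritic cells, were scarce, with 95 and 99 counts over all libraries. The sum hides markers that moved apart. Ccl22 reached 1540 CPM against 147.8 in Ctrl and Ccr7 789.6 against 195.9. Batf3 was highest in Ctrl, at 76.5, and as low as 5.22 elsewhere. Macrophage markers summed to 3539 CPM in Ctrl and as few as 1593 in PAM_LPS_HMW, and neutrophil markers to between 520 and 961. Of the macrophage markers, Csf1r was highest in Ctrl, at 1718, and as low as 416.8. C1qb and C1qc were highest in HMW_SeV, at 940.1 and 420.5 against 774.8 and 328.3 in Ctrl. Markers of mast cells and basophils, B cells, T and NK cells and plasmacytoid cells summed to at most 12.6, 18.7, 2.95 and 10.7 CPM, and the 5 erythroid markers had no count. The part of these shifts in the results was not tested.

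Over the 500 most variable genes, 115 libraries correlated best with their own group. Another group was closer by more than 0.025 in r, a limit set after seeing the data, for 6 libraries, all of triplets (by 0.0306 to 0.0578), and the largest such gap among the other libraries was 0.0192. The 6 were replicate 1 of HMW_cGAMP_CpGB, HMW_SeV_CpGB, Zymosan_SeV_cGAMP, HMW_SeV_cGAMP and PAM_HMW_Zymosan, and replicate 3 of LPS_SeV_CpGB. In the order just given, their closest groups were SeV_CpGB, cGAMP_CpGB, HMW_cGAMP, HMW_Zymosan_cGAMP, PAM_Zymosan_SeV and LPS_HMW_SeV. Whether wells or labels were exchanged was not tested. Their levels of the 7 genes could differ from those of their partners. Socs1 was at 308.4 CPM in replicate 1 of HMW_cGAMP_CpGB against 122.1 and 135.8 in its partners, and at 137.3 in replicate 1 of HMW_SeV_CpGB against 226.8 and 316.7, so each of these libraries lay nearer to the partners of the other. In replicate 3 of LPS_SeV_CpGB, Stat5a was at 41.7 against 185.6 and 213, and Socs3 at 445 against 928.7 and 991.6. Values without them are given beside the fitted differences that name their groups.

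The first question was what each ligand did alone. Levels are CPM on library sizes scaled by the TMM method, given as mean ± SD of 3 libraries, and differences are on the log2 scale with their standard errors, from edgeR's quasi-likelihood test. A difference was called where the p-value, adjusted over all 4720 genes, was under 0.05 and the log2 difference was at least 1. Of the 49 combinations of a gene and a single ligand, 24 were called, all of them higher than Ctrl, against 8.7% of such combinations over all tested genes called higher and 4.95% called lower. The median log2 difference was 1.29 over the 7 genes and -0.01 over all genes. In bulk samples such as these, more cells of a type and more RNA per cell cannot be told apart.

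The ligands differed in how many of the 7 transcripts they raised. LPS raised 6 (14.6% of all tested genes were called higher with LPS), all but Cish. PAM raised 5 (8.01%), all but Stat3 and Cish. SeV raised Stat2, Stat3, Jak2 and Socs1 (10.5%), CpGB raised Stat2, Jak2, Socs1 and Socs3 (10.8%), and cGAMP raised Stat2, Jak2 and Socs1 (11.7%). HMW (0.953%) and Zymosan (4.43%) raised Stat2. Several of these calls depended on depth: after thinning all libraries to the smallest total 16 were called. Those of Stat2 with PAM, HMW and Zymosan, Stat3 with LPS and SeV, Stat5a with PAM, Jak2 with cGAMP and Socs1 with PAM and CpGB were lost (adjusted p from 0.11 to 0.727), and Cish with SeV was gained (0.0483).

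**Figure D1:**
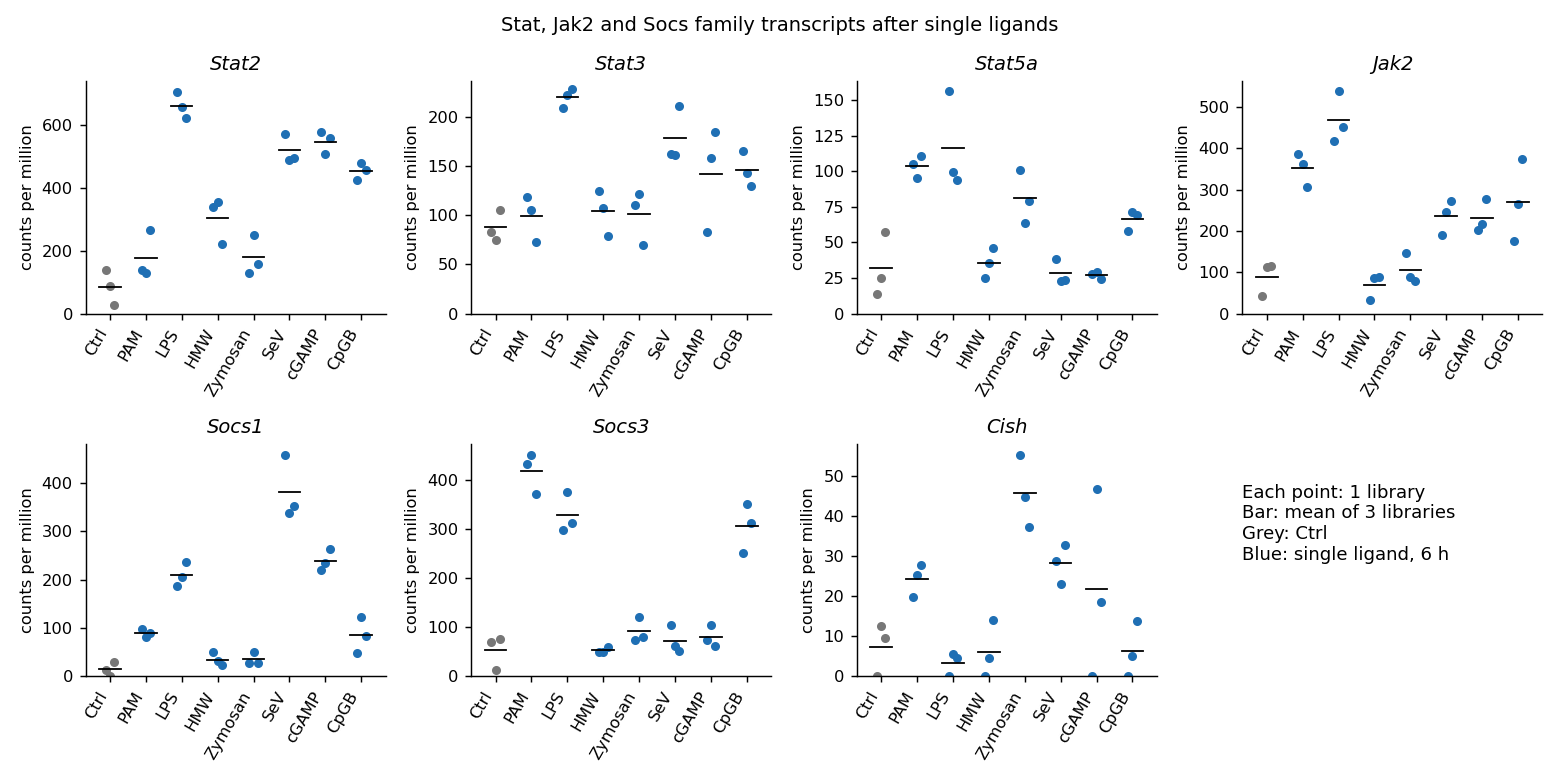
Level of each of the 7 transcripts in CPM (vertical axis, linear) in the 3 libraries of Ctrl (grey) and of each single ligand (blue), with bars at the means. Stat2 was called higher after all 7 ligands, whereas Socs3 stood at 252.3 or more in every PAM, LPS and CpGB library and at 121.6 or less in the others shown.

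Stat2, the STAT that carries the type I interferon signal, was called higher after every ligand. In Ctrl it was at 138.5, 87.3 and 28.8 CPM (84.9 ± 54.9 SD, n = 3). LPS gave 707.2, 659.5 and 622.0 (662.9 ± 42.7), a log2 difference of 3.06 ± 0.34 (adjusted p = 1.09e-21) and the highest mean of all 64 groups. The LPS libraries stood far above the Ctrl libraries and close to each other. cGAMP gave 548.2 ± 35.8, SeV 520.4 ± 46.0 and CpGB 454.5 ± 26.5, with log2 differences of 2.79, 2.71 and 2.54. HMW gave 340.9, 354.2 and 223.1, a log2 difference of 1.94 ± 0.35 (adjusted p = 8.79e-07), or 1.34 after thinning (adjusted p = 0.127). These 5 groups of libraries did not overlap Ctrl, whereas the PAM and Zymosan libraries did. PAM gave 137.8, 130.7 and 266.7 (log2 difference 1.18 ± 0.36, adjusted p = 0.00554), and Zymosan 128.8, 249.6 and 158.6 (1.20 ± 0.37, adjusted p = 0.0103). Both of these calls rested on single libraries: without the third PAM library the PAM difference was 0.77 (adjusted p = 0.182), without the second Zymosan library the Zymosan difference was 0.91 (adjusted p = 0.143), and without the third Ctrl library they were 0.68 (0.255) and 0.70 (0.322). On library size alone the PAM difference fell just under 1. In the order of the levels, no ligand was called against its neighbour, the widest steps being from HMW up to CpGB (0.60, adjusted p = 0.0082) and from Zymosan up to HMW (0.73, adjusted p = 0.013).

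Stat3, the STAT of IL-6 and IL-10 signals, moved less. Its Ctrl libraries were at 83.1, 74.8 and 105.6 CPM (87.9 ± 15.9). LPS libraries were at 208.4, 221.7 and 228.2 (219.4 ± 10.1), a log2 difference of 1.29 ± 0.37 (adjusted p = 0.0013), with no overlap, which fell just under 1 on library size alone. SeV gave 162.5, 161.0 and 211.1 (178.2 ± 28.5), a log2 difference of 1.03 ± 0.38 (adjusted p = 0.0295). The SeV libraries also lay above Ctrl, but this call was lost with DESeq2 (0.91, adjusted p = 0.101), without the third SeV library (0.85, adjusted p = 0.171) and without any 1 of the Ctrl libraries (adjusted p = 0.0524 to 0.0871). CpGB at 145.7 ± 18.1, cGAMP at 141.5 ± 52.7, HMW at 103.8 ± 23.1, Zymosan at 100.7 ± 27.1 and PAM at 98.6 ± 23.7 were not called. No ligand was called against its neighbour in the order of levels, while LPS was called higher than HMW, Zymosan and PAM.

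Stat5a, the STAT of GM-CSF signals, followed another order. Ctrl libraries were at 13.9, 24.9 and 57.6 CPM (32.1 ± 22.7, 9 counts in all). LPS gave 156.3, 99.8 and 94.0 (116.7 ± 34.5, log2 difference 1.67 ± 0.54, adjusted p = 0.0034), and PAM 105.0, 95.5 and 111.1 (103.9 ± 7.9, 1.55 ± 0.55, adjusted p = 0.0136). All LPS and PAM libraries lay above Ctrl. The PAM call was lost with DESeq2 (adjusted p = 0.0823) and without the first (0.0982) or the second Ctrl library (0.0777), and the LPS call without replicate 1 of all groups (1.21, adjusted p = 0.1). Zymosan at 81.5 ± 18.7 and CpGB at 66.3 ± 7.1 lay above every Ctrl library without being called (adjusted p = 0.162 and 0.222), and HMW, SeV and cGAMP at 35.8 ± 10.8, 28.2 ± 8.7 and 27.1 ± 2.4 were within the Ctrl range. Among single ligands 10 of the 21 comparisons of Stat5a were called, although no neighbours in the order were.

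Jak2, the kinase of the GM-CSF receptor among others, was called after 5 ligands. Ctrl libraries were at 41.6, 112.3 and 115.2 CPM (89.7 ± 41.7). LPS gave 416.9, 537.6 and 451.9 (468.8 ± 62.1, log2 difference 2.33 ± 0.30, adjusted p = 4.14e-15), and PAM gave 351.5 ± 41.7 (1.90 ± 0.31, adjusted p = 1.21e-09). CpGB at 174.7, 265.5 and 373.5 was more scattered (1.61 ± 0.31), and SeV at 236.1 ± 41.2 and cGAMP at 231.4 ± 39.5 gave log2 differences of 1.37 and 1.32. None of these 15 libraries reached down to the Ctrl range. Zymosan at 105.4 ± 36.6 and HMW at 68.9 ± 30.9, the lowest mean of the 64 groups, overlapped Ctrl and were not called. The step from Zymosan to cGAMP was the place where neighbours in the order differed by the call rule (log2 difference 1.24, adjusted p = 1.6e-05).

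Socs1, which inhibits the kinases of interferon receptors, showed the largest log2 differences of the 7 genes after SeV, cGAMP and LPS. With the other ligands another gene led: Socs3 with PAM (2.93), Stat2 with CpGB (2.54) and HMW (1.94), and Cish with Zymosan (2.39, not called). Ctrl libraries held 13.9, 0 and 28.8 CPM (14.2 ± 14.4), 4 counts in all. SeV gave 458.7, 337.2 and 351.8 (382.6 ± 66.3), a log2 difference of 4.53 ± 0.74 (adjusted p = 5.09e-18), or 23.9 times the Ctrl level with an exact 95% counting interval of 9.16 to 88.7. cGAMP gave 220.1, 233.7 and 263.9 (239.2 ± 22.4), a log2 difference of 3.89 ± 0.75 (adjusted p = 4.88e-12), or 15.5 times with an interval of 5.87 to 57.9. The SeV libraries all lay above the cGAMP libraries, but the difference of 0.64 was not called (adjusted p = 0.14). LPS at 209.4 ± 25.8 was not called against cGAMP (0.18 lower, adjusted p = 0.71) and was called higher than PAM at 89.2 ± 9.0 (log2 difference 1.26, adjusted p = 7.1e-05). PAM and CpGB, the latter at 84.7 ± 37.0, were not called against each other (adjusted p = 0.98) and were called higher than Ctrl, by 2.45 and 2.48. The CpGB call was lost without replicate 2 of all groups (1.73, adjusted p = 0.0737). Zymosan at 35.6 ± 13.5 and HMW at 34.8 ± 13.7 were not called. Socs1 separated the single ligands more often than any other of the 7, in 16 of 21 comparisons.

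Socs3, which binds the receptor chain of IL-6 and restrains STAT3, fell into high and low groups of ligands. Ctrl libraries were at 69.3, 12.5 and 76.8 CPM (52.8 ± 35.2). PAM gave 433.0, 452.5 and 372.2 (419.2 ± 41.8), a log2 difference of 2.93 ± 0.41 (adjusted p = 4.13e-15). LPS gave 329.3 ± 41.9 (2.58 ± 0.41) and CpGB 306.1 ± 50.4 (2.51 ± 0.42). These 3 were not called against their neighbours in the order, and CpGB was called 1.76 above the next, Zymosan, at 91.5 ± 26.2 (adjusted p = 1e-09). Zymosan, cGAMP at 80.0 ± 22.6, SeV at 72.7 ± 28.5 and HMW at 53.2 ± 6.2 overlapped Ctrl, and the largest of their differences was 0.75, after Zymosan (adjusted p = 0.339). SeV and cGAMP, which gave the highest Socs1 levels, left Socs3 uncalled.

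Cish, whose product CIS blocks STAT5 docking to receptors, had 2 counts in the 3 Ctrl libraries (0, 12.5 and 9.6 CPM). Zymosan gave 55.2, 44.8 and 37.3 CPM (45.8 ± 9.0, 21 counts), 5.62 times the Ctrl level with a counting interval of 1.37 to 49.4. Every Zymosan library lay above every Ctrl library, but the log2 difference of 2.39 ± 1.14 missed the threshold (adjusted p = 0.0699). PAM at 24.2 ± 4.1 and SeV at 28.2 ± 4.9 also lay above Ctrl without being called. LPS held 2 counts (3.34 ± 2.94), so no fold is given for it. Between ligands 5 of 21 comparisons were called: Zymosan was higher than HMW (log2 difference 2.51, adjusted p = 0.00836), CpGB (2.41, adjusted p = 0.00571) and LPS, and PAM and SeV were each higher than LPS.

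Over the 7 genes, 66 of 147 comparisons between single ligands were called, where 13.7% of all tested genes were called on average. Socs1 accounted for 16, Socs3 for 12, Jak2 for 11, Stat5a for 10, Stat2 for 9, Cish for 5 and Stat3 for 3.

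The next question was what a ligand added when others were already present. Each ligand was compared over 22 backgrounds (Ctrl, the 6 other ligands and their pairs), in 1 contrast between the groups with and without it. Here a call needed an adjusted p below 0.05 and no minimum fold. The 7 contrasts share libraries. Of 49 differences, 34 were called higher and 1 lower, where 21.1% and 19.2% of all tested genes were called. The median was 0.37 for the 7 genes and -0.01 for all genes.

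**Figure D2:**
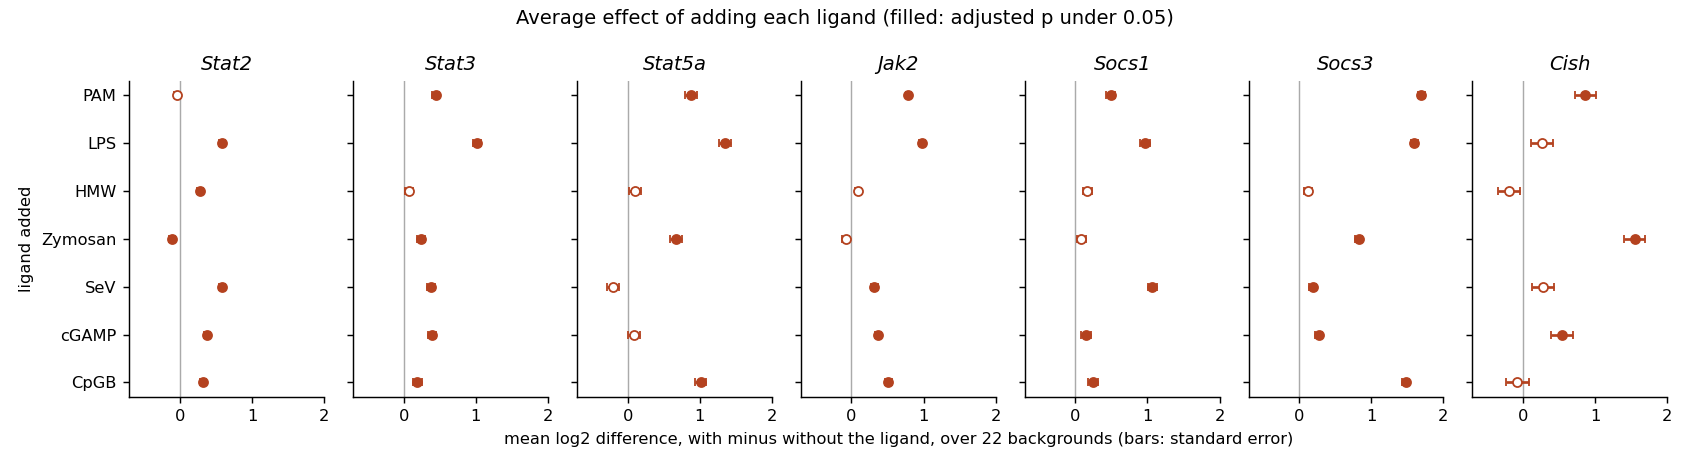
Mean log2 difference between groups with and without each ligand over 22 backgrounds (horizontal axis, bars are standard errors), by gene and ligand added, with filled points where the adjusted p was under 0.05. Socs3 lies at 1.69, 1.59 and 1.48 for PAM, LPS and CpGB, Cish at 1.55 for Zymosan, and Socs1 at 1.07 for SeV.

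LPS had the largest estimates for the 3 STAT genes and Jak2. It added 1.35 ± 0.08 to Stat5a, 1.02 ± 0.05 to Stat3, 0.97 to Jak2 and 0.59 ± 0.04 to Stat2. The Stat3, Stat5a and Jak2 means were higher with LPS in 22 of 22 backgrounds, with no overlap of libraries in 20, 18 and 20 of them. SeV added 0.58 to Stat2, while Zymosan lowered it by a small amount (-0.11 ± 0.04, adjusted p = 0.0251). The Zymosan call was lost with no filter on low counts, after thinning and without the first or the second Ctrl library. Stat5a also rose with CpGB (1.01), PAM (0.88) and Zymosan (0.67), whereas cGAMP (0.09) was not called. SeV gave -0.20 (adjusted p = 0.0514), which was called on library size alone (-0.27, adjusted p = 0.00504), with RLE factors (-0.22, 0.0262), with DESeq2 (-0.22, 0.0466), with the replicate block (0.0475), without the first or the second Ctrl library, without replicate 2 of all groups or of Zymosan_SeV, and without the 6 libraries that stood apart (0.0312).

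Socs3 rose by 1.69 ± 0.05 with PAM (adjusted p = 5.24e-96), 1.59 with LPS, 1.48 with CpGB and 0.83 with Zymosan. Its mean was higher with LPS in all 22 backgrounds, with no overlap in any, and higher with Zymosan in all 22, with no overlap in 17. Socs1 rose by 1.07 ± 0.07 with SeV, 0.97 with LPS, 0.49 with PAM and 0.25 with CpGB, the last not called after thinning (adjusted p = 0.0985). Cish rose by 1.55 ± 0.15 with Zymosan (adjusted p = 3.74e-24), 0.87 ± 0.15 with PAM and 0.54 with cGAMP (adjusted p = 0.0005), and the PAM and cGAMP additions were not called after thinning (0.56 and 0.50).

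The Socs3 levels of all 64 groups fell into classes that did not overlap, a split chosen after the values were seen. In the 49 groups with PAM, LPS or CpGB, group means ran from 306.1 CPM in CpGB to 995 with a median of 583, and single libraries from 252 to 1118. In the other 15 groups, means ran from 52.8 in Ctrl to 155.6 in HMW_Zymosan_cGAMP with a median of 113, and libraries from 12.5 to 216. The same split left a small overlap for Jak2, whose group means were 271 to 628 with and 68.9 to 279 without these ligands.

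Most of the transcripts were called after most pairs. Of 147 differences from Ctrl, 111 were called higher (13.7% over all tested genes), and the median log2 difference was 2.10 against -0.04 for all genes. Stat2, Jak2 and Socs1 were called in 20 of 21 pairs each, Socs3 in 18, Stat3 and Stat5a in 14 each and Cish in 5. For Stat2 the exception was PAM_Zymosan, at 115.8, 110.5 and 74.9 CPM (100.4 ± 22.2), the lowest group after Ctrl. It lay below PAM by 0.90 (adjusted p = 0.029) and below Zymosan by 0.92 (adjusted p = 0.026), both under the fold threshold. For Jak2 and Socs1 the exception was HMW_Zymosan, at 143.4 and 40.3 CPM. The 5 pairs called for Cish were PAM_Zymosan, PAM_cGAMP, LPS_Zymosan, Zymosan_cGAMP and Zymosan_CpGB, 4 of which hold Zymosan.

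**Figure D3:**
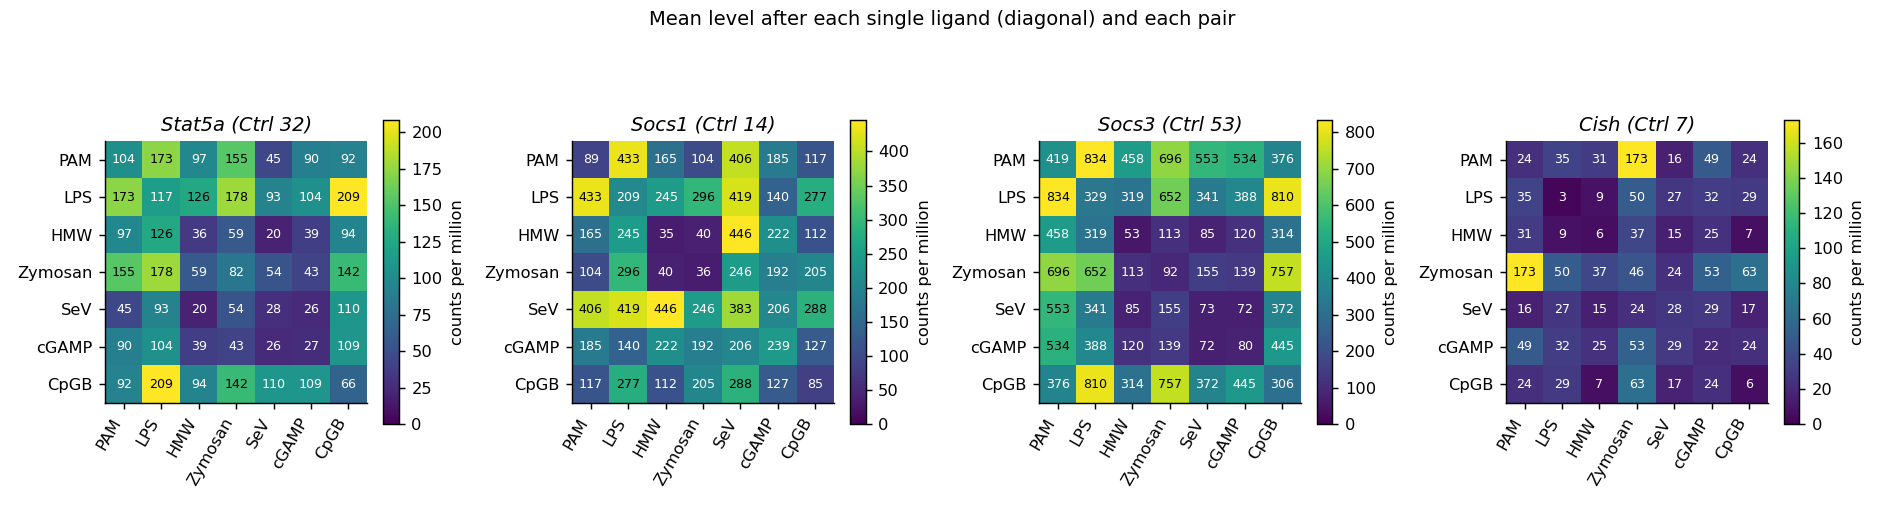
Mean level in CPM (colour scale, linear, from 0) of Stat5a, Socs1, Socs3 and Cish after each single ligand (diagonal) and each pair (off the diagonal, mirrored), with the Ctrl mean in each title. Cish reached 173 in PAM_Zymosan and at most 63.5 elsewhere in the plot, and Socs1 exceeded 400 in PAM_LPS and in SeV with PAM, LPS or HMW.

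Compared with each of its single ligands, a pair was called higher in 88 of 294 differences and lower in 1 (4.86% and 2.52% over all tested genes). Socs3 was called higher in 20 of 42, Socs1 in 17, Jak2 in 13, Stat3 and Stat5a in 11 each, Stat2 in 9 and Cish in 7. The fall was Stat5a in PAM_SeV, at 47.0, 25.7 and 63.1 CPM (45.3 ± 18.8) against 103.9 ± 7.9 with PAM, a log2 difference of -1.20 (adjusted p = 0.0185). All 3 PAM_SeV libraries lay below the PAM libraries, but the call was lost with no filter on low counts (adjusted p = 0.0594), without replicate 1 of all groups (0.0725), without replicate 2 (0.242) and after thinning (0.749).

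A stricter comparison asked whether a pair exceeded both of its single ligands. It was met by 7 of 147 combinations (0.353% over all tested genes), and 6 of the 7 concerned inhibitors. Cish in PAM_Zymosan had the largest margin. Its libraries were at 179.0, 125.2 and 214.7 CPM (173 ± 45.1, 77 counts), against 45.8 ± 9.0 with Zymosan and 24.2 ± 4.1 with PAM, and the smaller of the log2 differences was 1.98 (adjusted p = 0.000523). This was the highest Cish level of the 64 groups, and it did not overlap either single ligand. Without replicate 3 of all groups the difference was 1.58 and no longer called (adjusted p = 0.469), nor was it after thinning (1.55, adjusted p = 1).

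Socs3 exceeded both ligands in 3 pairs. LPS_CpGB gave 834.0, 833.4 and 761.6 CPM (809.7 ± 41.6), 1.29 above the higher of its ligands (adjusted p = 5.79e-10). Zymosan_CpGB gave 765.3, 671.2 and 833.7 (756.7 ± 81.6), 1.27 above the higher of its ligands (adjusted p = 6.84e-09). PAM_LPS gave 834.3 ± 64.6, 1.01 above PAM (adjusted p = 5.79e-07). PAM_LPS dropped to 0.94 with DESeq2 and to 0.71 on library size alone, and LPS_CpGB to 0.94 after thinning (adjusted p = 0.0602).

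Socs1 exceeded both ligands in 2 pairs. PAM_LPS gave 391.8, 422.1 and 485.7 CPM (433.2 ± 47.9), 1.05 above LPS (adjusted p = 9.12e-05). This call was lost with DESeq2 (difference just under 1, adjusted p = 0.00282) and on library size alone (0.87). Zymosan_CpGB gave 206.1, 215.2 and 193.9 (205 ± 10.7), 1.17 above CpGB (adjusted p = 0.00323), and was lost without replicate 1 (adjusted p = 0.062) or replicate 3 (0.24) of all groups. Stat3 in PAM_Zymosan, at 231.6, 169.4 and 219.7 CPM against 98.6 ± 23.7 with PAM and 100.7 ± 27.1 with Zymosan, had a difference of 1.07 (adjusted p = 0.0422) that was not called with DESeq2 (adjusted p = 0.223) or without any 1 replicate number. All 3 of these calls were lost after thinning (adjusted p of 0.567 or more).

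Interaction terms asked whether the log2 effects of a pair's ligands added up. A negative term means a pair level below the sum of the single effects. Of 147 terms 35 were negative and called, against 3.5% over all tested genes. The median was -0.35 for the 7 genes and -0.03 for all. Stat2 accounted for 16 of them, Socs1 for 9, Jak2 for 7 and Socs3 for 3. All terms share the 3 Ctrl libraries. With edgeR, none of the 147 was positive and called, none was positive with an unadjusted p under 0.05, and DESeq2 called none. After thinning 13 terms were called.

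For Stat2 the strongest term was LPS_cGAMP, at -3.12 ± 0.38 (adjusted p = 1.05e-15). Its 3 libraries, at 472.6, 463.6 and 604.8 CPM, lay below every LPS library and overlapped those of cGAMP. SeV_cGAMP (-2.82), LPS_SeV (-2.81) and LPS_CpGB (-2.79) followed. Stat2 stayed between 306.8 and 624.8 CPM in all 35 triplets, under the 662.9 of LPS alone. For Jak2 the strongest were PAM_CpGB at -1.68 ± 0.36 (adjusted p = 7.57e-05), then PAM_LPS and LPS_SeV at -1.48 and LPS_CpGB at -1.44. For Socs3 they were PAM_CpGB at -2.65 ± 0.46 (adjusted p = 1.87e-08), PAM_LPS at -1.58 and LPS_CpGB at -1.22 (adjusted p = 0.0301). PAM_LPS and LPS_CpGB were thus above both ligands for Socs3 and still below the sum of the ligands' log2 effects. The Socs3 LPS_CpGB term was not called with DESeq2 (adjusted p = 0.0759) or without the second Ctrl library (0.221). The Socs3 PAM_LPS term was not called without that library either (0.0525). After thinning, both of these Socs3 terms (adjusted p = 0.184 and 0.114) and the Jak2 term of PAM_LPS (0.0834) were not called.

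Socs1 gave the most negative terms of the 7 genes. SeV_cGAMP was at -4.75 ± 0.78 (adjusted p = 4.22e-14), LPS_cGAMP at -4.49 ± 0.79 (adjusted p = 8.27e-12), LPS_SeV at -3.55 and cGAMP_CpGB at -3.37, the last not called after thinning (-2.56, adjusted p = 0.0778). SeV_cGAMP libraries were at 205.7, 204.4 and 209.0 CPM, below all SeV libraries and below all cGAMP libraries. The difference from SeV was -0.86 (adjusted p = 0.00851), under the fold threshold. LPS_cGAMP libraries, at 131.3, 159.1 and 130.9, likewise lay below those of LPS and of cGAMP, by 0.60 (adjusted p = 0.179) and 0.78 (adjusted p = 0.0218). LPS_SeV libraries, at 402.1, 478.2 and 377.8, overlapped those of SeV, so its term came with no lower level. The weaker Socs1 term of PAM_SeV (adjusted p = 0.0455) was lost without any 1 Ctrl library, and that of PAM_CpGB (0.0427) without the first or the second. The Socs1 term of LPS_CpGB was lost without the second Ctrl library (adjusted p = 0.112) and the Jak2 term of SeV_CpGB without the first (0.075). Without the third, the Stat2 terms of PAM_LPS, PAM_cGAMP, LPS_Zymosan, HMW_SeV and Zymosan_cGAMP were not called (adjusted p from 0.0772 to 0.372).

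Across all backgrounds, the range of Socs1 levels was narrower with cGAMP, a pattern seen after the values were known. The 22 backgrounds without cGAMP ran from 14.2 to 446.4 CPM, and the same backgrounds with cGAMP from 89.0 to 239.2. The mean was higher with cGAMP in 10 backgrounds, with no overlap of libraries in 7, and lower in 12, with no overlap in 11. The average over backgrounds was accordingly small, at 0.15 (adjusted p = 0.0396), and was not called with DESeq2 (0.12, adjusted p = 0.166), on library size alone (0.01), after thinning (adjusted p = 0.178), without the first (adjusted p = 0.0556) or second (0.0961) Ctrl library, or without the 6 libraries that stood apart (0.12, adjusted p = 0.0808). On HMW_CpGB the mean with cGAMP was 188.8 with replicate 1, which stood apart, and 129.0 without it, against 112.4 without cGAMP. Rises on some backgrounds and falls on others were not particular to cGAMP. With CpGB, Socs1 means were higher in 10 backgrounds and lower in 12, with no overlap in 7 and 6. With Zymosan they were higher in 11 and lower in 11, with no overlap in 4 and 4. Ranges with and without the other ligands are not given here.

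**Figure D4:**
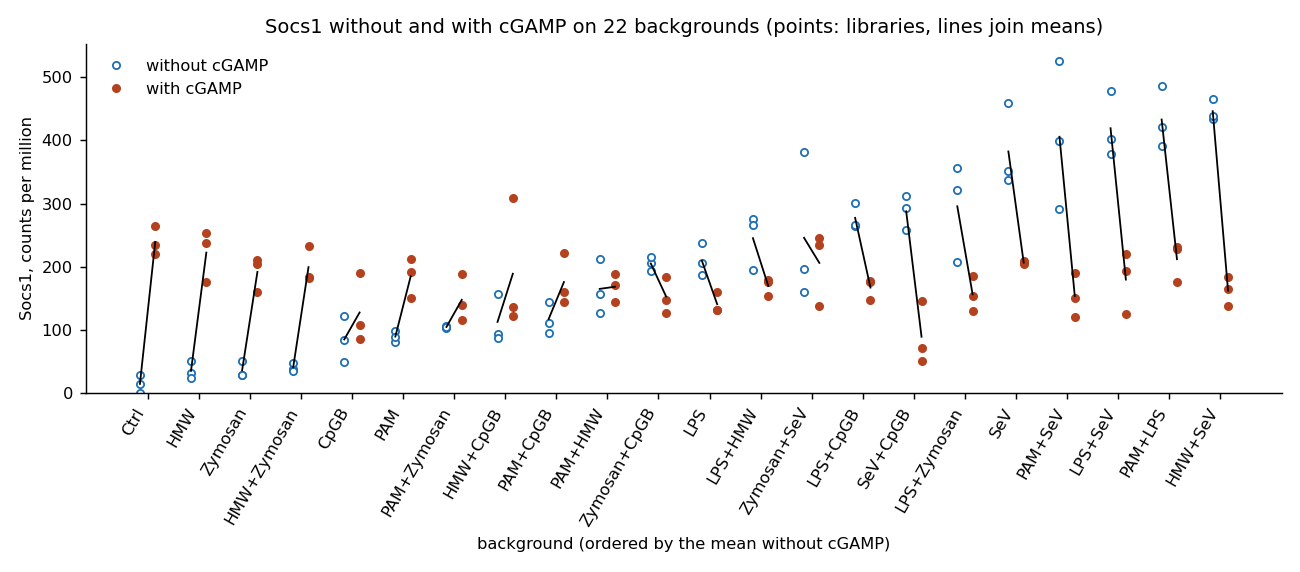
Socs1 in CPM (vertical axis, linear) in single libraries without (open) and with (filled) cGAMP on each of 22 backgrounds, ordered by the mean without cGAMP, with lines joining the means. Means are higher with cGAMP on low backgrounds such as Ctrl (14.2 to 239.2) and lower on high ones such as HMW_SeV (446.4 to 162.1), and the single high point of HMW with CpGB and cGAMP, at 308.4, is from a library that resembled another group.

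Falls were called in 5 pairs to which cGAMP was added as the third ligand. HMW_SeV had the highest Socs1 level of the 64 groups, with libraries at 434.5, 438.6 and 466.1 CPM, and HMW_SeV_cGAMP had 138.3, 163.8 and 184.2, a log2 difference of -1.44 ± 0.23 (adjusted p = 1.44e-07). Without replicate 1 of HMW_SeV_cGAMP, which stood apart, and the other 5 such libraries it was -1.36 (adjusted p = 2.56e-06). PAM_SeV went from 405.9 to 153.5 (-1.41 ± 0.22, adjusted p = 1.47e-07, but -0.90 and 0.309 after thinning), LPS_SeV from 419.4 to 179.5 (-1.20, adjusted p = 1.38e-05) and PAM_LPS from 433.2 to 211.9 (-1.05, adjusted p = 0.000113). SeV_CpGB went from 287.6 to 89.0 (-1.75 ± 0.33, adjusted p = 4.71e-06), the lowest Socs1 level of any triplet. In none of the 5 did the libraries overlap. The PAM_LPS fall shrank to -0.92 without replicate 1 of all groups and was then under the fold threshold. A sixth fall in Socs1, CpGB added to SeV_cGAMP (206.4 to 89.0, -1.28, adjusted p = 0.00207), was lost without replicate 2 (adjusted p = 0.0651) or replicate 3 (0.189) of all groups.

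In triplets 215 of 245 differences from Ctrl were called higher (15.7% over all tested genes), with a median of 2.46 against -0.05 for all genes. Stat2, Jak2, Socs1 and Socs3 were called in all 35 triplets, Stat3 in 30, Stat5a in 29 and Cish in 16. Without the 6 libraries that stood apart the count was 216. The highest Stat3 group was PAM_LPS_CpGB at 390.1, 442.3 and 342.9 CPM (391.8 ± 49.7), and PAM_LPS_Zymosan (391.7 ± 122.1) and PAM_LPS (200.5, 566.3 and 404.1) had similar means with more scatter. The highest Stat5a group was LPS_Zymosan_CpGB at 286.8, 257.2 and 205.3 (249.8 ± 41.3), and the lowest HMW_SeV at 8.9, 40.8 and 10.6. The highest Jak2 group was PAM_LPS_HMW at 624.4, 583.7 and 676.0 (628 ± 46.2). The highest Socs3 group was LPS_cGAMP_CpGB at 916.1, 1044 and 1026 (995.3 ± 69.1). Median group levels of Stat2 were 454.5 CPM over single ligands, 506.0 over pairs and 513.6 over triplets, while those of Socs3 were 91.5, 376.4 and 624.3.

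Compared with each of its pairs, a triplet was called higher in 92 of 735 differences and lower in 8 (2.28% and 1.08% over all tested genes). Socs3 accounted for 30 of the higher ones and Stat5a for 23, most of them the addition of LPS (10 and 9), PAM (9 and 6) or CpGB (9 and 6). Socs1 had 12 higher and 6 lower, Cish 8 and 2, and Jak2, Stat2 and Stat3 had 7, 6 and 6 higher. Without the 6 libraries that stood apart the counts were 95 higher and 9 lower. No triplet was called above or below all 3 of its pairs for any of the 7 genes, each with a log2 difference of at least 1: edgeR called 0 of 245, with 0 at an unadjusted p under 0.05 at the same fold and 0 with DESeq2, where 0.0115% over all tested genes were called higher. By level, Socs3 in LPS_cGAMP_CpGB lay above every library of its 3 pairs, but its difference from LPS_CpGB was 0.30 (adjusted p = 0.39).

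The 2 lower Cish steps were additions to PAM_Zymosan. PAM_LPS_Zymosan was at 104.4, 42.3 and 48.7 CPM (65.1 ± 34.2), a log2 difference of -1.50 ± 0.41 from PAM_Zymosan (adjusted p = 0.00125). PAM_Zymosan_cGAMP was at 58.3, 44.6 and 67.2 (56.7 ± 11.4), a difference of -1.61 ± 0.39 (adjusted p = 0.000195). Neither overlapped PAM_Zymosan. The LPS step was lost without replicate 3 of all groups (-1.05, adjusted p = 0.188) and the cGAMP step after thinning (-1.50, adjusted p = 0.147). CpGB, HMW and SeV gave means of 79.8, 107.7 and 106.7, with differences of -1.11 (adjusted p = 0.051), -0.70 (0.178) and -0.68 (0.204), which were not called. Without the library of PAM_HMW_Zymosan that stood apart, the HMW mean was 115.1 and, without all 6 such libraries, the difference -0.61 (adjusted p = 0.404). The CpGB step was called without the 6 libraries that stood apart (adjusted p = 0.0397) and on library size alone (0.0334).

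**Figure D5:**
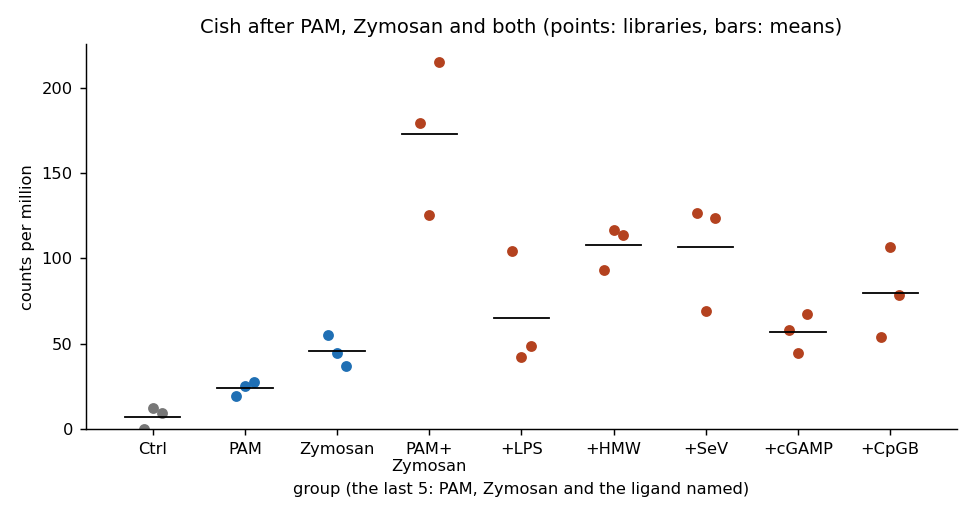
Cish in CPM (vertical axis, linear) in single libraries of Ctrl, PAM, Zymosan, PAM_Zymosan and PAM_Zymosan with each added ligand, with bars at the means. PAM_Zymosan has the highest mean, 173, and every triplet mean is lower, from 56.7 with cGAMP to 107.7 with HMW.

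Cish means of the 6 groups with PAM and Zymosan together ran from 56.7 to 173 CPM (median 93.2), in a grouping also chosen after the values were seen. The 16 groups with Zymosan and not PAM ran from 24.1 to 63.5 (median 48.4), the 16 with PAM and not Zymosan from 10.4 to 48.98 (median 30.7), and the 26 with neither from 3.34 to 42.1 (median 20.0). Compared with PAM_SeV, PAM_Zymosan_SeV was higher by 2.82 ± 0.68 (adjusted p = 4.06e-05), and compared with Zymosan_SeV by 1.69 ± 0.52 (adjusted p = 0.0115).

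Three-way terms asked whether a triplet departed from what its single ligands and pairs predict. They use the single-ligand and Ctrl libraries of the pair terms with the opposite sign. A gene at the same raised level in all these stimulated groups would give negative pair terms and a positive three-way term. A positive term therefore need not mean a gain in the triplet. Of 245 terms 23 were positive and called (0.803% over all tested genes), and the median was 0.06 against 0.04 for all genes. Stat2 accounted for 16, Jak2 and Socs1 for 3 each and Socs3 for 1. With edgeR none was negative and called, 7 were negative with an unadjusted p under 0.05, and DESeq2 called no negative term. The count was 14 without replicate 2 and 8 without replicate 3 of all groups, and 3 after thinning, when the 7 terms of Jak2, Socs1 and Socs3 were all lost (adjusted p from 0.0614 to 0.533). The largest Stat2 terms were LPS_SeV_cGAMP at 2.81 (adjusted p = 2.35e-08), LPS_cGAMP_CpGB at 2.74, PAM_Zymosan_cGAMP at 2.48 and SeV_cGAMP_CpGB at 2.41. LPS_SeV_cGAMP libraries were at 475.6, 516.5 and 460.7 CPM, against means of 616.9, 513.6 and 506.3 for LPS_SeV, LPS_cGAMP and SeV_cGAMP. PAM_Zymosan_cGAMP was at 460.3 ± 42.6 CPM against 100.4 ± 22.2 for PAM_Zymosan, and its term lost its call without replicate 3 (1.30, adjusted p = 0.635).

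The Socs1 three-way terms were LPS_SeV_cGAMP at 4.15 (adjusted p = 4.43e-07), LPS_cGAMP_CpGB at 3.24 (adjusted p = 0.00201) and PAM_cGAMP_CpGB at 2.92 (0.0288). The Jak2 terms were LPS_SeV_cGAMP at 1.45, PAM_LPS_CpGB at 1.40 and LPS_SeV_CpGB at 1.33 (adjusted p = 0.0474). The last rests on a group with a library that stood apart and was 1.35 with an adjusted p of 0.0563 without it. The Socs3 term was PAM_LPS_CpGB at 1.52 (adjusted p = 0.0447). The 3 Jak2 terms and the Socs1 term of PAM_cGAMP_CpGB were not called without the first Ctrl library (adjusted p from 0.0617 to 0.158), nor were the Socs3 term (0.197) and that of PAM_cGAMP_CpGB (0.109) without the second. The Stat2 terms of HMW_SeV_CpGB and HMW_cGAMP_CpGB, whose groups also held libraries that stood apart, were 1.74 and 2.23 with them and 1.84 and 2.16 without, and neither was called without the third Ctrl library (adjusted p = 0.365 and 0.0549). The Stat2 terms of PAM_Zymosan_SeV, PAM_Zymosan_CpGB, LPS_HMW_SeV, LPS_HMW_cGAMP and LPS_Zymosan_cGAMP were not called without that library either (adjusted p from 0.0635 to 0.362). That of LPS_SeV_CpGB was 2.29 with and without the libraries that stood apart.

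Across the 64 group means of log2 CPM, the pattern of each gene was set beside that of every tested gene. These correlations describe groups that share ligands and depth, and no p-value is attached. Stat2 was most like Igtp, Ddx58 and Ifi204 (r = 0.958, 0.954 and 0.947), Jak2 most like Slco3a1, Cfb and Slc7a2 (0.946, 0.920 and 0.920) and Stat3 most like Nos2, Car13 and AA467197 (0.899, 0.872 and 0.871). Stat5a was most like Acp5, Socs3 and Znrf1 (0.907, 0.891 and 0.888), and Socs3 most like Ptgs2, Plagl2 and Tarm1 (0.921, 0.920 and 0.920). Socs1 had less close partners in Casp1, Gbp4 and Ctsc (0.830, 0.829 and 0.826), as did Cish in Mt2, Anxa5 and Mt1 (0.785, 0.780 and 0.780). Among the 7 genes Stat5a and Socs3 were the most alike (0.891), Jak2 and Socs3 (0.791), Stat2 and Socs1 (0.759) and Stat3 and Jak2 (0.756) followed, and Stat2 and Cish were the least alike (-0.148).

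The remaining genes of the pathway were read from lists of other kinases and STAT factors, other restraints, receptors and cytokines, after single ligands. Among the other kinases and STAT factors, Irf9, which acts with STAT2, was called higher after 5 ligands, from 1.11 with cGAMP to 1.50 with SeV. Jak1, a kinase of interferon receptors, was called higher after LPS (1.15), Zymosan (1.23), SeV (1.04) and cGAMP (1.08). The medians of all genes lay between -0.09 and 0.03.

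Of 14 other restraints 7 were tested, and the 5 calls among 49 combinations with a ligand were higher, where 8.7% over all tested genes were called higher. Usp18, which blocks the interferon receptor from within, made 4 of them: LPS gave 780.0 ± 12.7 CPM, cGAMP 799.9 ± 115.3, SeV 697.9 ± 35.8 and CpGB 546.6 ± 102.4, against 96.2 ± 11.7 in Ctrl, with log2 differences of 2.99, 3.03, 2.82 and 2.51. The list medians ran from -0.40 with Zymosan to 0.55 with CpGB. Of 22 receptor chains 15 were tested, with 8 calls higher and 7 lower over the 7 ligands (8.7% and 4.95% over all tested genes) and medians from -0.41 with cGAMP to 0.39 with LPS. Il15ra, which presents IL-15, was higher after 5 ligands, from 1.21 with PAM to 3.82 with cGAMP (677.3 ± 71.0 against 48.4 ± 23.8 CPM). Ifngr1, the binding chain of the interferon-gamma receptor, was lower after the same 5, from -1.36 with PAM to -2.89 ± 0.70 with cGAMP (15.9 ± 8.9 against 124.0 ± 76.3 CPM). Of 14 cytokines 8 were tested, and all 16 calls over the 7 ligands were higher (8.7% over all tested genes), with medians from -0.16 with HMW to 2.76 with CpGB. Il15 was called after LPS (3.02), cGAMP (2.88), SeV (2.71) and CpGB (1.67), the ligands that also raised Usp18.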

How the data were processed

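Counts per gene were deposited by the authors as whole-number counts of molecular identifiers (UMI) for 23481 genes. Per the labels' protocols, RNA was reverse transcribed with template switching, pooled and sequenced after tagmentation. BWA 0.7.15 and mm10 are named in the submitters' processing notes, and the counting rules are not given in the sources used here. The table was not normalized, and totals between 46564 and 610234 limit the precision of scarce genes such as Cish.

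Every library was mapped to its group by its title, and the labels do not say whether a replicate number stands for a shared culture, animal or day. edgeR 4.0.16 (R 4.3.3) kept 4720 genes by its filter on low counts, which held 95.7% of all counts, scaled libraries by TMM and fitted 1 quasi-likelihood model with 1 coefficient per group, with Benjamini-Hochberg adjustment over all tested genes within a contrast. No sample was dropped or imputed. Ratios carry exact 95% counting intervals, which cover counting error alone. The tests were tried on simulated counts.

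The 7 genes, the pathway and marker lists were chosen with earlier results of these data known. Counts and medians of the list of other kinases and STAT factors, and 1 of its genes, are not reported here. Pathway genes are named where called for at least 4 of 7 ligands, and by likeness the 3 genes of highest r over group means of log2 CPM (prior count 2). The rule for libraries that stand apart and the splits by PAM, LPS and CpGB and by PAM and Zymosan were chosen after seeing the data. Alternatives were DESeq2 1.42.0, other scalings, no filter, thinned libraries, no fold threshold, a replicate block and libraries left out.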

Additional observations from a re-analysis of the deposited data

How the results depend on the processing

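None of the 133 called values named here changed its direction under any alternative run. Exceeding both single ligands, met by 7 combinations, was met by 4 with DESeq2, 4 on library size alone, 2 after thinning all libraries to the smallest total, 12 with no fold threshold, 3 to 7 when 1 replicate number was left out of all groups and 5 without replicate 2 of Zymosan_SeV, the shallowest library. Called pair interactions fell from 35 to 13 after thinning and ran from 26 to 36 with libraries left out. Called three-way terms fell from 23 to 3 after thinning and ran from 8 to 26 with libraries left out. Triplet steps went from 100 to 166 with no fold threshold. The causes were not tested, except that thinning leaves fewer counts and dropping the threshold admits smaller differences. The 24 single ligand calls ran from 20 to 24, the 111 of pairs from 102 to 116 and the 215 of triplets from 198 to 216 with libraries left out, and they were 16, 87 and 172 after thinning, with 22 and 97 for single ligands and pairs with DESeq2. With the replicate block the counts were 24, 113 and 215, no call among the named values was lost and the addition of SeV to Stat5a was gained (adjusted p = 0.0475). In Ctrl and the single ligands, libraries of the same number deviated together with an r of -0.042 to 0.065 over 84 pairs, none above 0.1. At these depths, such values cannot tell whether libraries of the same number shared a culture, animal or day. Of the 133 values, 123 were kept with DESeq2, 124 with RLE factors, 123 on library size alone, 129 with no filter and 66 after thinning. Other scalings moved the median gene of single ligand contrasts by -0.03 (library size alone, HMW) to -0.30 (library size alone, LPS), so differences from Ctrl carry that uncertainty. Depth limits Cish and Socs1 in Ctrl, at 2 and 4 counts, most.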

Other observations

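Some transcripts of the cytokine list, chosen after their values were seen, are set here beside the inhibitors after single ligands. Il6, a cytokine that signals through STAT3, stood at 126.4 ± 48.6 CPM in Ctrl and was called higher with PAM (1336 ± 128, log2 difference 3.33 ± 0.29), LPS (1266 ± 156, 3.25 ± 0.29) and CpGB (1160 ± 137, 3.15 ± 0.30), the 3 ligands for which Socs3 was called. Ebi3, a chain of IL-27, was called with the same 3, from 54.3 ± 4.0 CPM in Ctrl to 191.7 ± 31.0, 187.2 ± 38.0 and 297.6 ± 78.8. Ifnb1, the gene of interferon beta, had 3 counts in Ctrl and was called with SeV, at 21.4 times the Ctrl level (counting interval 7.12 to 105), and with cGAMP, at 16.0 times (5.29 to 79.2), the ligands with the highest Socs1 means. Socs1 was also called with LPS, PAM and CpGB, for which Ifnb1 was not. Of the 8 cytokines tested, Il12a was also called with PAM, LPS and CpGB, Il12b with CpGB and Il15 with LPS, SeV, cGAMP and CpGB, and the other two were not called with any single ligand. These values describe single-ligand groups that share 1 control group, and no test of a link between the genes was made.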
